A study of Mus musculus with 4 samples.

Results

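B-1-like B cells carrying a kappa light chain were picked out of non-parenchymal liver cells from the RNA counts of each barcode, a barcode being the tag of 1 droplet. A barcode was kept when it held at least 500 unique molecular identifiers (UMIs, each standing for 1 captured transcript) from at least 300 genes, with at most 10% of its UMIs from mitochondrially encoded genes. It was counted as a B-1-like kappa cell when it had a UMI of Cd79a (a chain of the B cell receptor complex), at least 3 UMIs summed over Agbl1, Sox5, Zbtb32, Ahnak2 and Lmo7, no UMI of Fcer2a (CD23, the low-affinity IgE receptor of follicular B cells), under 10 UMIs of Prg4, none of the T cell genes Cd3e and Cd3d, and at least as many UMIs of the kappa constant gene Igkc as of the lambda constant genes Iglc1, Iglc2 and Iglc3 together. The rule took 5577 of 26825 kept barcodes, out of 33198 in the files. The cells were thus chosen by their measured RNA counts, and the counts used in the choice are given only as a description.

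Male wild-type C57BL/6J mice, 7 weeks old at the start, were fed the FPC diet (fructose, palmitate, cholesterol and trans fat), which produces fatty liver with inflammation and scarring. In the Progression phase the diet held either 0.05% cholesterol (P-LC24) or 1.25% cholesterol (P-HC24) for 24 weeks. In the Intervention phase every mouse then received the 0.05% diet for 8 further weeks, giving I-LC32 (low throughout) and I-HC32 (high, then low) at week 32. Liver was taken by fine-needle aspiration from the same animals at both times, and each library pooled 12 aspirates, 4 from each of 3 mice with 1 from each major lobe. Each group was therefore 1 library, the week 24 and week 32 libraries of an arm shared their mice, and no difference between groups has a replicate check. Where 4 values follow each other without library names, they are those of the low and then the high arm at week 24, followed by the low and then the high arm at week 32 (library order). Prog denotes P-HC24 over P-LC24 and Int denotes I-HC32 over I-LC32. Intervals are exact 95% intervals unless named otherwise and cover counting error only. No chow-fed group is described here, and fewer cells of a type or less RNA per cell cannot be told apart from a share of barcodes alone.

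B-1 cells are innate-like B lymphocytes that arise largely in early life, renew themselves, and are best known from the peritoneal and pleural cavities. They make much of the natural IgM of serum, often with few added bases at the junctions of the antibody genes, and B-1a cells are told from B-1b cells by surface CD5. A well-known B-1a specificity, for phosphatidylcholine exposed on aged or damaged membranes, is built from the heavy chain gene Ighv11-2 with the kappa gene Igkv14-126, or from Ighv12-3 with Igkv4-91. Each antibody V gene ends in a recombination signal, a heptamer and a nonamer held apart by a spacer, at which the gene is cut and joined.

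The V genes on which the repertoire results turn are shown here, read from the GRCm39 genome, 5′ to 3′ on the coding strand. Each run opens with the last bases of the V exon in lower case, and the capitals mark the heptamer and the nonamer of the recombination signal that follows the exon. Lower case between the capitals is the spacer. In Ighv12-3 the base just before the heptamer lies between the exon and the signal. The windows lie at chr12:114011822-114011920 (minus strand) for Ighv11-2, chr6:67873567-67873654 (plus strand) for Igkv14-126, chr12:114330101-114330200 (minus strand) for Ighv12-3 and chr6:68745511-68745598 (minus strand) for Igkv4-91.
Ighv11-2: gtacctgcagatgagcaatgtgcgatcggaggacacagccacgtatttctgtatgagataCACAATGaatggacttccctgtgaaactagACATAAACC
Igkv14-126: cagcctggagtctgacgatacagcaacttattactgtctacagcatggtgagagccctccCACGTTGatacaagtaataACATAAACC
Ighv12-3: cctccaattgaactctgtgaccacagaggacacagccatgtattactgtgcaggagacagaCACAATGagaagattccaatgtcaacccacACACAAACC
Igkv4-91: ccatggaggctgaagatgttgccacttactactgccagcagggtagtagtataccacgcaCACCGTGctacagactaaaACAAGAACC
The signals were read with spacer lengths set in advance, 23 bases for the heavy chain genes and 12 bases for the kappa genes. Each signal was placed close to the exon end, at the start that differed least from the common forms given next. Against the common forms CACAGTG and ACAAAAACC, the heptamer differed at 1 base in Ighv11-2, Ighv12-3 and Igkv4-91 and at 2 bases in Igkv14-126, and every nonamer differed at 1 base. The V exon of Ighv11-2 is identical to that of its neighbour Ighv11-1 at 303 of 307 bases (98.7%), so reads of that pair could be shared; Ighv11-1 had no UMI in these cells.

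The B-1-like kappa cells numbered 573, 1551, 1142 and 2311 in library order. At week 24 they made up 11.1% (10.3 to 12) of kept barcodes in the low arm and 22.4% (21.5 to 23.4) in the high arm. At week 32 they made up 15.4% (14.6 to 16.2) in I-LC32 against 31.4% (30.4 to 32.5) in I-HC32. The share was higher in the arm that had eaten high cholesterol at both times and higher at week 32 than at week 24 in both arms, and no pair of these intervals overlapped. Kept barcodes with at least 10 UMIs of Prg4, which the rule left out, made up 0.72%, 6.86%, 1.02% and 9.5% in library order. The libraries thus ranked alike by both shares, and a common source of the 2 was not tested. The difference was 11.3 percentage points at week 24 (Newcombe interval 9.97 to 12.6) and 16.0 points at week 32 (14.7 to 17.4). The week 32 gap depended on the light chain, because I-LC32 also held 706 lambda cells that met the same rule. Most heavy V gene UMIs of those lambda cells came from few V genes, as given in the last paragraph. With both light chains counted, the shares were 13% at P-LC24 and 24.9% at P-HC24, then 24.9% in I-LC32 against 35.1% in I-HC32, and the week 32 difference was 10.1 points (8.67 to 11.6). Among kept B cells, taken as kept barcodes with Cd79a that met the limits on Prg4, Cd3e and Cd3d, the shares were 17.5%, 33.8%, 23.4% and 47.2%.

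The week 24 difference depended on the mitochondrial limit. At a limit of 5% the shares came to 6.48%, 6.76%, 6.33% and 25.5%. The difference at week 24 was then 0.284 points (-0.841 to 1.44), that at week 32 was 19.1 points, and the low-cholesterol arm was no higher at week 32 than at week 24. Mitochondrial content differed between the libraries, as 51.5%, 85.9%, 77.7% and 38.8% of these cells lay between 5% and 10%. Of the follicular-type comparison cells defined below, 10.9%, 47.5%, 44.3% and 17.4% did, fewer in every library. Median content was 5.03%, 6.02%, 5.88% and 4.74% in the B-1-like kappa cells. It was 5.37%, 6.46%, 5.69% and 4.93% in the lambda cells that met the same rule. The part of mitochondrial content in the difference was not tested beyond these limits.

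**Figure D1:**
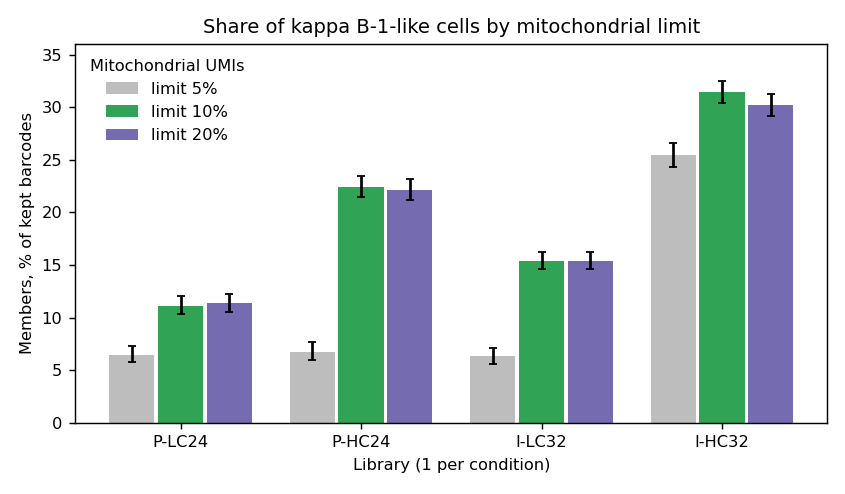
B-1-like kappa cells as a percentage of kept barcodes in each library (y axis), at mitochondrial limits of 5%, 10% and 20% of UMIs, with exact 95% intervals for counting error. At 10% the shares were 11.1%, 22.4%, 15.4% and 31.4%, whereas at 5% I-HC32 lay at 25.5% and the other 3 libraries between 6.33% and 6.76%.

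The cells were deeply covered, with medians of 12328, 11720, 11256.5 and 11765 UMIs per cell and 73452803 UMIs in all. Most were far from the limit on the rule genes, as 4489 cells had at least 10 such UMIs, 192 had 3, and 245 cells that met every other condition had 2. A further 546 cells met the other conditions but held 1 UMI of Fcer2a, and 494 more held 2 or more. Igkc exceeded the lambda genes by less than 2-fold in 49, 112, 107 and 113 cells, and 12 cells were tied. The 6 pairs of libraries shared 17 to 41 barcode sequences each, of which at most 5 in a pair were B-1-like kappa cells in both. A doublet caller marked 32, 97, 52 and 73 of the cells, and they were retained.

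Levels are given as UMIs per 1000000 UMIs (CPM) of the summed cells of a library. Of the genes that defined the cells, Sox5, a transcription factor gene, stood at 1617, 1274, 1905 and 1699 CPM in library order. Agbl1, for a glutamate-trimming carboxypeptidase, stood at 907, 646, 906 and 877 CPM. Zbtb32, a transcriptional repressor gene, was at 92.8 to 109 CPM, the large scaffold gene Ahnak2 at 83.8 to 135 CPM, and Lmo7 at 94.4 to 170 CPM. Sox5 was the most abundant of the 5 in every library.

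To see what else these cells shared, they were set beside kappa B cells of the same library that had a UMI of Fcer2a and none of the 5 rule genes (1443, 1077, 1187 and 728 cells), hereafter Fcer2a B cells. Because the same RNA counts separated the populations, the differences are described without a test. Of 8626 genes with enough UMIs to compare, 321 (3.72%) were at least 2-fold higher in the B-1-like cells in each of the 4 libraries and 278 (3.22%) at least 2-fold lower. From a list of 17 other B-1 genes, 15 could be compared, 13 of which were at least 2-fold higher in every library. Of 11 follicular genes compared, none was at least 2-fold higher throughout and 7 were at least 2-fold lower. At a mitochondrial limit of 5%, where 5961 genes could be compared, the numbers were 138 higher and 132 lower. Most genes of the B-1 list were thus higher in these cells, with the exceptions given next. The lists were chosen with earlier results of these data known. These counts therefore describe the cells and do not test the name given to them.

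The B-1 genes included several surface receptors. Ctla4, an inhibitory receptor that binds CD80 and CD86, stood at 224, 185, 188 and 234 CPM, against 4.53, 5.59, 3.99 and 5.08 CPM in the Fcer2a B cells. Its ligand Cd80 stood at 140, 105, 95.8 and 142 CPM, against 4.41, 3.55, 2.61 and 5.08 CPM. Il5ra, for the receptor of the B-1 growth factor IL-5, stood at 472, 327, 355 and 355 CPM, against 77.0, 76.3, 106 and 121 CPM. For each of these genes all 4 libraries of the B-1-like cells lay above all 4 of the Fcer2a B cells. Cd9 was at 88.8 to 101 CPM and the Fc receptor-like gene Fcrl5 at 76.9 to 103 CPM in the B-1-like cells.

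Zcwpw1, for a reader of histone methylation and a listed marker that the rule did not use, stood at 236, 262, 170 and 251 CPM against 9.42, 9.14, 7.68 and 8.95 CPM. Bhlhe41, a transcription factor gene needed for B-1a cells, stood at 108, 74.8, 83.9 and 75.3 CPM against 2.15, 2.03, 2.46 and 3.14 CPM. Plscr1, for a phospholipid scramblase, was at 205, 161, 134 and 169 CPM against 5.53 to 8.63 CPM. These genes again lay in ranges that did not overlap. The classical B-1 surface genes Itgam (CD11b) and Spn (CD43) were low, at 29.1 to 39.1 CPM and 16.6 to 27.4 CPM, and the interleukin gene Il10 was at 8.83 to 12.1 CPM against at most 0.768 CPM.

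The gene of the B-1a marker CD5 was scarcely detected. Cd5 stood at 3.34, 4.77, 7.0 and 6.07 CPM in the B-1-like cells, against 0.834, 0.677, 1.84 and 0.726 CPM in the Fcer2a B cells. A Cd5 UMI was found in 4.19%, 5.67%, 7.71% and 6.79% of the B-1-like cells. With every cell thinned to 3000 UMIs, these shares were 1.05%, 0.97%, 1.68% and 1.52%, against 0.143%, 0.0949%, 0.612% and 0.144% of Fcer2a B cells, whose median depth was 4879 to 5326 UMIs before thinning. Surface CD5 was not measured here, so the cells were not divided into B-1a and B-1b. Bhlhe40, the relative of Bhlhe41, went the other way, at 7.77 to 9.64 CPM against 16.2 to 23.7 CPM.

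Among the follicular genes, Cr2 (CD21, a complement receptor) stood at 12.4, 7.67, 9.35 and 7.14 CPM against 142, 77.7, 84.8 and 84.4 CPM in the Fcer2a B cells. Satb1, a chromatin organiser gene, was at 95.3 to 120 CPM against 911 to 1098 CPM. The transcription factor gene Bach2 was at 304 to 526 CPM against 1321 to 2014 CPM. These genes were lower in the B-1-like cells of every library, whereas Klf2, listed with them, was higher there at 1543 to 2246 CPM against 1104 to 1784 CPM.

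**Figure D2:**
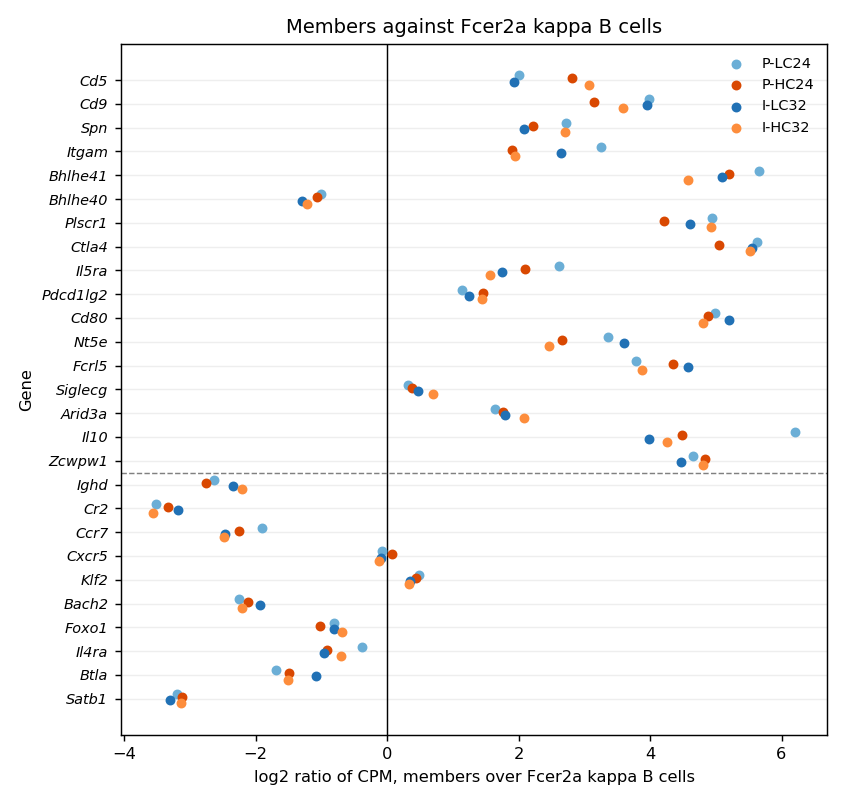
Log2 ratio of CPM in B-1-like kappa cells over Fcer2a B cells of the same library (x axis) for 17 B-1 genes (above the dashed line) and 10 follicular genes (below it), 1 point per library, a count of 0 being set to 3 UMIs. Bhlhe40 was the B-1 gene that lay to the left of 0, and the 4 libraries lay close together for most genes.

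The highest ratios over Fcer2a B cells outside the lists belonged to genes of varied function. Syn3, for a synapsin known from nerve terminals, stood at 61.9, 50.6, 59 and 68.2 CPM against at most 0.677 CPM. Robo1, for a Slit guidance receptor, stood at 79.6, 31.9, 61.3 and 43.8 CPM against at most 0.508 CPM. Krt8, for an epithelial keratin, stood at 22.6, 43.2, 27.6 and 46.3 CPM, and in the Fcer2a B cells it was at 0.726 CPM in I-HC32 and at 0 in the other 3 libraries. Fzd6 (a Wnt receptor), Tnfsf8 (CD30 ligand), Tnfrsf8 (CD30), Tnfrsf19, Nrp2 (a semaphorin coreceptor) and Ryk were also among the 20 highest. The antisense models Sox5os2 and Sox5os4 were too, but they overlap Sox5, which the rule used. Rflnb, Tmem108, Pxdc1, Zfp608, Gad1, Cr2, Treml2, Satb1, Vpreb3 and Neurl3 had the 10 lowest ratios.

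The cells held more Ighm RNA and less Ighd RNA than the Fcer2a B cells, and antibody protein was not measured here. Ighm, the mu constant gene, stood at 3538, 3113, 3154 and 3437 CPM, against 2089, 1683, 1596 and 1842 CPM in Fcer2a B cells. Ighd, the delta constant gene, stood at 120, 88.8, 114 and 109 CPM, against 742, 598, 579 and 505 CPM. The ratio of Ighm to Ighd UMIs was thus 29.5, 35.1, 27.7 and 31.4 in the B-1-like cells and 2.82, 2.81, 2.76 and 3.65 in the Fcer2a B cells. Switched constant genes outnumbered Ighm in 3, 7, 7 and 9 cells, or 0.524%, 0.451%, 0.613% and 0.389% of the cells. Igha UMIs numbered 56, 1310, 129 and 229, of which 1086 of the P-HC24 UMIs came from 1 cell. Jchain, for the chain that joins IgM into pentamers, had 38, 516, 38 and 141 UMIs, with 451 of those in P-HC24 in a single cell, so the P-HC24 totals of both genes rested mostly on individual cells.

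The antibody repertoire was read from UMIs of V genes, which the rule did not use. Ighv11-2, whose end is printed above, held 148 of 364 heavy V UMIs (40.7%, 35.6 to 45.9) in the low arm at week 24 and 129 of 534 (24.2%, 20.6 to 28) in the high arm. At week 32 it held 103 of 313 (32.9%, 27.7 to 38.4) in the low arm and 175 of 620 (28.2%, 24.7 to 31.9) in the high arm. In the Fcer2a B cells it held 1 of 661 (0.151%), 0 of 310 (which allows up to 0.968%), 0 of 262 (up to 1.15%) and 1 of 146 (0.685%). It was the leading heavy V gene of the B-1-like cells in all 4 libraries. The share was higher in P-LC24 than in P-HC24 with separate intervals, and the intervals of I-LC32 and I-HC32 overlapped. At a mitochondrial limit of 5% the Ighv11-2 share was 12.2% in P-HC24, where it was 24.2%, and 25.3% in I-LC32. Counting each cell once by its leading heavy V gene gave 82 of 214 cells (38.3%), 103 of 414 (24.9%), 88 of 250 (35.2%) and 147 of 491 (29.9%).

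Igkv14-126 held 238 of 1110 kappa V UMIs (21.4%), 298 of 1738 (17.1%), 199 of 961 (20.7%) and 396 of 2241 (17.7%) in library order. In the Fcer2a B cells it held 0.523%, 0.181% and 0.521% in the first 3 libraries and 0 of 297 in I-HC32, which allows up to 1.01%. The order of the libraries was the same as for Ighv11-2 UMIs. After Ighv11-2 with 555 UMIs over the 4 libraries, the heavy genes with most UMIs were Ighv12-3 (83), Ighv6-3 (76), Ighv1-47 (71) and Ighv3-6 (68). After Igkv14-126 with 1131 UMIs, the kappa genes with most were Igkv2-109 (477), Igkv1-110 (452), Igkv2-107 (337) and Igkv12-44 (319).

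Igkv2-107 took 3.06%, 4.09%, 8.12% and 6.87% of kappa V UMIs in the B-1-like cells, against 0.96%, 0.72%, 1.04% and 0.34% in the Fcer2a B cells. The effective number of heavy V genes, which is small where few genes hold most UMIs, was 5.57, 13.3, 8.16 and 10.5 in the B-1-like cells and 50.3, 43.4, 37.8 and 27.1 in the Fcer2a B cells. The repertoire was therefore narrower in the B-1-like cells of every library, although the numbers of heavy V UMIs differed between the populations and libraries. A heavy V UMI was present in 37.3%, 26.7%, 21.9% and 21.2% of the B-1-like cells and a kappa V UMI in 75.2%, 57.7%, 48.3% and 54.4%, so most cells had no heavy chain assignment.

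**Figure D3:**
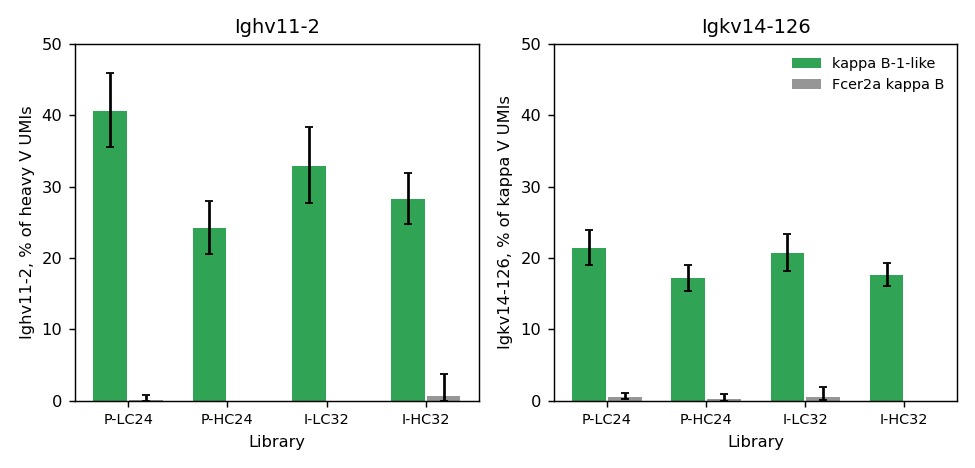
Share of heavy V UMIs from Ighv11-2 and of kappa V UMIs from Igkv14-126 (y axes, percent) in B-1-like kappa cells and Fcer2a B cells of each library, with exact 95% intervals (no bar where the count was 0). Ighv11-2 lay between 24.2% and 40.7% in the B-1-like cells and at or under 0.685% in the Fcer2a B cells.

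The printed genes were found together in the same cells. Among cells led by Ighv11-2 that also had a kappa V UMI, Igkv14-126 led in 56 of 68 (82.4%, 71.2 to 90.5), 55 of 72 (76.4%), 35 of 54 (64.8%) and 84 of 107 (78.5%). Among cells led by any other heavy V gene it led in 4 of 109, 10 of 201, 5 of 82 and 14 of 222. Over the 4 libraries this was 230 of 301 against 33 of 614 cells. Ighv12-3 was found with Igkv4-91 in 0 of 1, 4 of 15, 3 of 8 and 11 of 24 cells, against 2 of 867 cells with another heavy V gene over the 4 libraries. Cells of a library share their mice and may share a clone, so these shares describe the libraries.

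The cells were then divided by their V genes, a division chosen after the repertoire had been seen. Those led by Ighv11-2 or Igkv14-126, hereafter 11-2 cells, numbered 134, 225, 178 and 330. Those with other V genes numbered 334, 811, 488 and 1090, and 105, 515, 476 and 891 cells had no V gene to classify. The 11-2 cells were 28.6%, 21.7%, 26.7% and 23.2% of the classified cells. They held more UMIs, with medians of 16270, 14930, 14142 and 15039.5 against 11296, 11750, 11042 and 11848. They also held more UMIs of the 5 rule genes, with medians of 54, 34, 52.5 and 54 against 21, 21, 26 and 31. Median mitochondrial content was close in both classes, at 4.98%, 6.01%, 5.97% and 4.62% in the 11-2 cells and 5.0%, 5.95%, 5.72% and 4.71% in the others.

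UMIs were summed per library and class and tested by edgeR's quasi-likelihood test with library as a term, so that the 4 libraries gave 4 paired comparisons. The libraries come from 2 sets of mice sampled at 2 times, so the p-values measure the spread between these 4 libraries. Of 10791 genes tested, 1115 (10.3%) were higher in the 11-2 cells and 845 (7.83%) lower at an adjusted p below 0.05. With the classes limited to cells of 10000 to 20000 UMIs, 854 and 638 genes passed, of which 807 and 562 were among the first sets. At a mitochondrial limit of 5% the numbers were 395 and 332, and without I-LC32 they were 807 and 563. No setting called a gene in the opposite direction.

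Several genes that set the B-1-like cells apart were higher still in the 11-2 cells. Zcwpw1 stood at 579, 528, 363 and 542 CPM in the 11-2 cells, against 78.4, 223, 126 and 190 CPM in the others, a log2 fold of 1.82 ± 0.17 (SE) with an adjusted p of 2.59e-06 by edgeR. Syn3 stood at 133, 108, 129 and 162 CPM against 29.5, 39.4, 47.5 and 53 CPM, a log2 fold of 1.72 ± 0.09 (edgeR adjusted p 4.51e-08). Fzd6 stood at 55, 42.2, 57.9 and 37.5 CPM against 10.1, 11.4, 14.5 and 15 CPM, a log2 fold of 1.90 ± 0.14 (edgeR adjusted p 4.27e-07). No library reversed any of these. Robo1 (log2 fold 1.80), Krt8 (1.61), the phospholipase gene Plcb4 (1.70) and the growth factor gene Bmp6 (1.53) were also higher.

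Cd3g, for a chain of the T cell receptor complex, stood at 19.7, 14.4, 15.4 and 20.5 CPM in the 11-2 cells, against 1.72, 5.30, 4.37 and 7.47 CPM in the others (log2 fold 1.85 ± 0.22, edgeR adjusted p 2.40e-05). The rule left out cells with Cd3e or Cd3d, not Cd3g. Only 2 of the 8 genes of the T cell list had enough UMIs to test, and 1 of them, Cd3g, was higher.

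The genes that were lower in the 11-2 cells included Lrrk2, for a large kinase expressed in B and myeloid cells, at 4.92, 14.4, 28.9 and 25.6 CPM against 119, 86.9, 138 and 116 CPM (log2 fold -2.44 ± 0.17, edgeR adjusted p 3.19e-07). Vmn2r96, a vomeronasal receptor gene, had 2, 1, 2 and 4 UMIs in the 11-2 cells against 51, 64, 74 and 107 UMIs (log2 fold -3.61 ± 0.31, edgeR adjusted p 1.51e-06). For both genes the classes were apart in every library. B3gnt7, a glycosyltransferase gene, had a log2 fold of -3.30, Mctp1 one of -3.01, Plcl1 one of -2.87, Serinc5 one of -2.67, the phospholipid transfer protein gene Pltp one of -2.62, Vpreb3 one of -2.53, Zfp608 one of -2.42 and the carboxypeptidase gene Cpm one of -2.34.

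All 17 genes of the B-1 list were tested between the classes, of which 13 were higher in the 11-2 cells and 1, Bhlhe40, was lower (log2 fold -1.12). Bhlhe41 rose by 0.88 on the log2 scale (edgeR adjusted p 2.31e-06), Ctla4 by 0.73 (edgeR adjusted p 8.57e-05) and Il10 by 1.40 (edgeR adjusted p 7.42e-05). Cd9 (0.61), Il5ra (0.54), Cd80 (0.44) and Plscr1 (0.29) were higher as well. Cd5 was higher by 0.88 (edgeR adjusted p 0.00533), but the call was lost with DESeq2 (adjusted p 0.0950), with the class taken from the heavy chain alone (adjusted p 0.203) and without P-HC24 (adjusted p 0.0646). Fcrl5 (log2 fold 0.24, edgeR adjusted p 0.0191) and Spn (0.47, edgeR adjusted p 0.0103) also passed but were lost under several settings. Itgam (0.25, edgeR adjusted p 0.0607), Nt5e (-0.14, edgeR adjusted p 0.554) and Siglecg (log2 fold -0.06) did not pass.

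Of 10 follicular genes tested, 5 were lower in the 11-2 cells, among them Satb1 (log2 fold -1.95), Cr2 (-1.73), the chemokine receptor gene Ccr7 (-1.47) and Bach2 (-1.06), and 1, Klf2, was higher (0.34). The median log2 fold over all genes tested was 0.00317. The ribosomal protein genes were higher in 79 of 80 and the nuclear genes of oxidative phosphorylation in 48 of 78, with none lower, and medians of 0.22 and 0.20. In the vimentin, galectin and S100 list, 11 of 13 were higher (median 0.38), and in the heat shock list 8 of 13 (median 0.20). Sterol synthesis and uptake genes were lower in 8 of 20, with none higher (median -0.44), and B lineage transcription factors in 7 of 16, with none higher (median -0.12). Markers of other cells moved with the class, as all 4 erythroid genes (median -1.65) and all 4 mast cell genes (median -1.14) were lower in the 11-2 cells, along with 4 of 9 macrophage genes and 1 of 2 dendritic cell genes. Of 2 NK cell genes tested 1 was higher (list median 1.74), and of the dendritic genes 1 was also higher. Their part in the results was not tested.

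**Figure D4:**
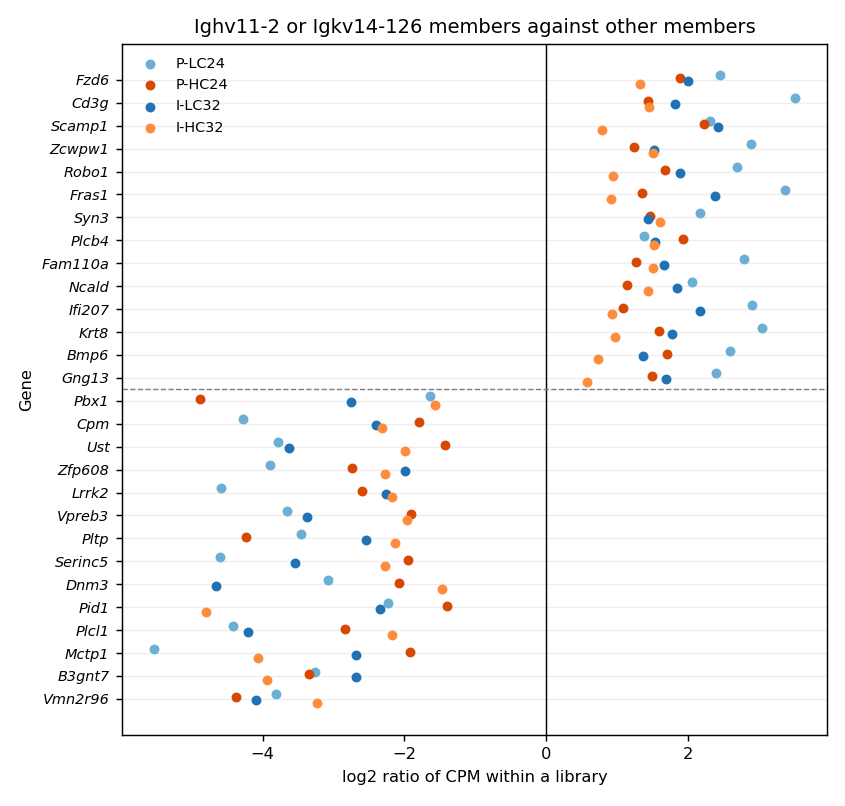
Log2 ratio of CPM in 11-2 cells over cells with other V genes within each library (x axis) for 14 of the 15 genes highest and 14 of the 15 genes lowest by edgeR. The points of the 4 libraries lie on the same side of 0 for each gene shown.

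Across the diet groups, 7817 genes could be compared between the B-1-like cells of P-LC24 and P-HC24. At least 1.2-fold higher in P-HC24 were 988 genes (12.6%), and 3296 (42.2%) were at least 1.2-fold lower, so the median gene had a log2 ratio of -0.19. At week 32, 1224 of 8045 genes (15.2%) were higher in I-HC32 and 524 (6.51%) lower, with a median of 0.05. The Fcer2a B cells showed similar shares, with 14.7% higher and 38.9% lower in Prog, and 16.9% higher and 8.68% lower in Int. Relative to the median gene, Prog had 2054 higher and 1557 lower genes and Int had 832 and 791, whereas by mean UMIs per cell Int had 3156 and 175. The balance of directions thus depended on the scaling, and the list medians below are given relative to the median gene. Week 24 and week 32 values of an arm came from the same mice.

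Heat shock chaperone genes were higher in the formerly high-cholesterol arm at week 32. Of 9 compared, 7 were at least 1.2-fold higher in Int and none lower, where 15.2% of all genes were higher. Their Int median was 0.75 above the median gene, whereas in Prog none was higher and 1 was lower. Hspa8, for the constitutive HSP70 protein, stood at 804, 947, 916 and 1624 CPM, a log2 ratio of 0.24 (0.19 to 0.28) in Prog and 0.83 (0.80 to 0.85) in Int. Hsp90ab1, for an HSP90 chaperone, stood at 1255, 1183, 1061 and 1987 CPM (-0.08 in Prog and 0.91 in Int). Hsp90aa1 stood at 338, 312, 318 and 588 CPM (-0.11 and 0.89), and Hsph1 at 40.7, 24.4, 36.5 and 80.5 CPM (-0.73 and 1.14). I-HC32 was the highest library for each of these genes. The inducible genes Hspa1a and Hspa1b were at or under 4.57 CPM in all 4 libraries. In the Fcer2a B cells the Int ratio of Hsp90ab1 was 1.18 and that of Hspa8 0.62, so the difference was seen there too.

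Ribosomal and nuclear oxidative phosphorylation genes passed 1.2-fold upwards in Prog more often than the 12.6% of all genes. Of 80 ribosomal protein genes, 36 were higher in Prog and 10 lower, and of 77 nuclear oxidative phosphorylation genes 35 were higher and 3 lower, each list having a median 0.43 above the median gene. In the Fcer2a B cells 45 of 80 and 39 of 77 were higher. Rplp0, for a protein of the ribosomal stalk, stood at 3514, 5417, 4676 and 5080 CPM (log2 ratio 0.62 in Prog and 0.12 in Int). Cox4i1, for a subunit of cytochrome c oxidase, stood at 472, 592, 539 and 573 CPM (0.33 and 0.09). In both genes P-LC24 was the lowest library. In Int, 3 ribosomal genes were higher and 2 lower, and 2 oxidative phosphorylation genes were higher and 7 lower.

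The mitochondrially encoded genes were higher in 5 of 13 and lower in 4 in Prog, and higher in none and lower in 8 in Int, a median of -0.34 against the median gene. mt-Co3 stood at 9279, 12461, 12840 and 10220 CPM (log2 ratio 0.43 in Prog and -0.33 in Int). At a mitochondrial limit of 5% the unscaled list median went from 0.16 to -0.13 in Prog and from -0.29 to 0.01 in Int, so its direction rested on the limit.

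Genes of antigen presentation included 5 of 12 that were higher in Prog and 2 lower, and none higher and 1 lower in Int. Cd74, the invariant chain of MHC class II, stood at 6643, 9168, 9486 and 9912 CPM (0.46 in Prog and 0.06 in Int). H2-DMa, for a peptide-loading chaperone, stood at 222, 304, 260 and 278 CPM (0.45 and 0.09). In both genes P-LC24 lay below the other 3 libraries. The Prog ratio in Fcer2a B cells was 0.47 for Cd74 and 0.41 for H2-DMa.

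B lineage transcription factors were lower in 11 of 16 in Prog and higher in 1, against 42.2% of all genes lower, a median of -0.18 against the median gene. In the Fcer2a B cells 11 of 16 were lower in Prog and none higher, a median of -0.17, so the difference was seen there too. Pax5, the factor that keeps B cell identity, stood at 325, 222, 347 and 305 CPM (-0.55 in Prog and -0.18 in Int). Ikzf1 stood at 443, 308, 394 and 476 CPM (-0.52 and 0.27), and Bach2 at 405, 304, 526 and 344 CPM (-0.41 and -0.61). Bach2 passed 1.2-fold downwards at both times and Pax5 and Ikzf1 at week 24, while the Int ratio of Pax5 was -0.03 by mean UMIs per cell.

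Of 14 B-1 genes compared, 1 was higher and 8 lower in Prog, where 42.2% of all genes were lower, and 5 were higher and none lower in Int, where 15.2% of all genes were higher. Il5ra went from 472 to 327 CPM at week 24 (log2 ratio -0.53, -0.59 to -0.47) and stood at 355 CPM in both week 32 libraries. Zcwpw1 had ratios of 0.15 in Prog and 0.56 in Int, of which the second passed 1.2-fold. Bhlhe41 had ratios of -0.53 and -0.16, of which the first passed, and its Int ratio was 0.0026 by mean UMIs per cell. The list's median was -0.13 in Prog and 0.06 in Int against the median gene.

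Immediate early genes, which are induced within minutes of a stimulus, were lower in 8 of 19 and higher in 1 in Prog, and lower in 8 of 18 and higher in 1 in Int. The Prog share was that of all genes, of which 42.2% were lower, whereas 6.51% of all genes were lower in Int. Fos stood at 374, 189, 492 and 337 CPM (-0.99 in Prog and -0.55 in Int), Egr1 at 83.0, 39.2, 117 and 66.9 CPM (-1.08 and -0.80), and Nr4a3 at 37.3, 16.6, 33.4 and 20.2 CPM (-1.17 and -0.72). Each was lower in the high-cholesterol arm at both times. The list's median, -0.03 in Prog and -0.24 in Int against the median gene, shows that not all its genes followed. In the Fcer2a B cells 2 of 16 were lower and 3 higher in Prog. There 7 of 19 were lower and 2 higher in Int, so the Int difference was seen there too. In the vimentin, galectin and S100 list, 6 of 13 were higher in each comparison, against 12.6% of all genes in Prog and 15.2% in Int. In the Fcer2a B cells 9 of 10 were higher in Prog and 6 of 10 in Int, so the difference was seen there too. Vim, for an intermediate filament, stood at 2037, 2660, 2018 and 3501 CPM (0.38 and 0.79), and Anxa2 at 165, 205, 176 and 251 CPM (0.31 and 0.51). Ahnak was lower in Prog and higher in Int (-0.82 and 0.42).

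**Figure D5:**
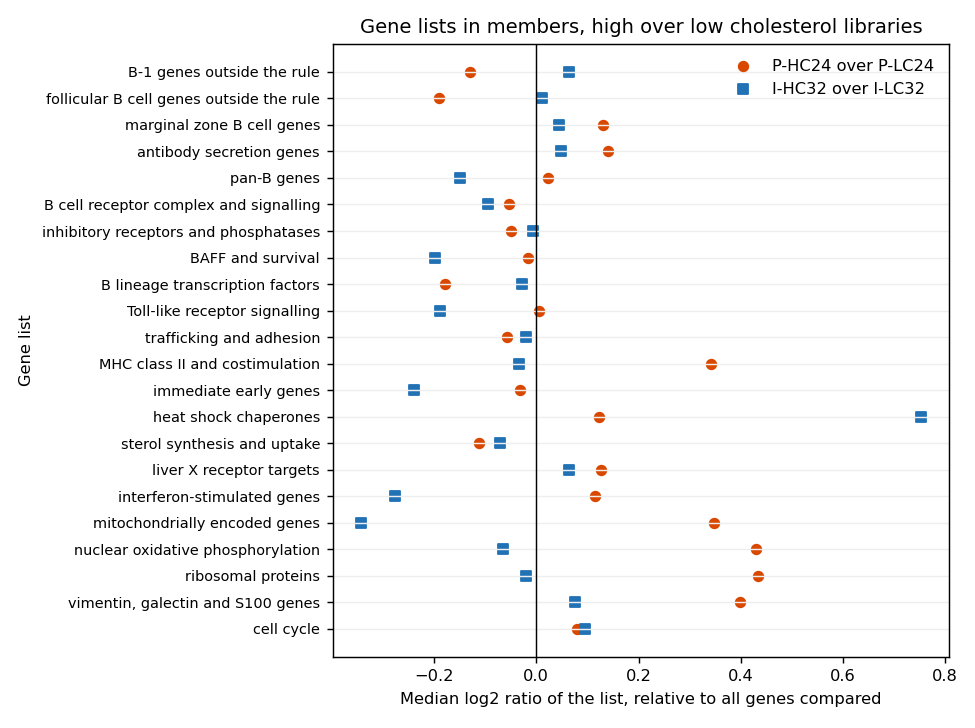
Median log2 ratio of each gene list relative to the median of all genes compared (x axis), for Prog (circles) and Int (squares) in B-1-like kappa cells; each group is 1 library, so no error between mice can be shown. The heat shock chaperones lay at 0.75 in Int, and the ribosomal and nuclear oxidative phosphorylation genes both lay at 0.43 in Prog.

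The most changed genes by the naming rule included some that went the same way at both times. Ly6k, for a GPI-anchored surface protein, stood at 5.35, 16.8, 6.21 and 25.3 CPM, a log2 ratio of 1.65 (1.18 to 2.16) in Prog and 2.03 (1.71 to 2.36) in Int. Krt8 (22.6, 43.2, 27.6 and 46.3 CPM) had ratios of 0.93 (0.69 to 1.18) and 0.75 (0.59 to 0.91). Id3, for an inhibitor of E-protein transcription factors, stood at 16.6, 33.2, 16.4 and 24.4 CPM (1.0 and 0.57). For these 3 genes both libraries of the high-cholesterol arm lay above both of the other arm. Ly6k ratios in the Fcer2a B cells were 1.70 and 3.10, and those of Id3 were -0.08 and 0.13. Hcrtr2, for an orexin receptor, stood at 17.8, 5.11, 20.3 and 6.99 CPM (-1.80 and -1.54) and was lower in the high-cholesterol arm at both times. Its ratios were -3.60 and -0.45 at a mitochondrial limit of 5%.

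The mast cell protease genes headed both lists. Cma1 stood at 4.28, 33.7, 4.21 and 31.2 CPM (2.98 in Prog and 2.89 in Int) and Mcpt4 at 2.81, 20.4, 4.21 and 21.8 CPM (2.86 and 2.37). The Prog ratios were 1.36 for Cma1 and 2.09 for Mcpt4 at a mitochondrial limit of 5%. Both libraries of the high-cholesterol arm were higher than both of the other. In kept barcodes without Cd79a, Cma1 stood at 25.0, 106, 18.6 and 132 CPM, so the gene moved the same way in cells that were not B cells, and its part in the B-1-like values was not tested. The summed mast cell list stood at 11.5, 85.4, 13.3 and 73.9 CPM in the B-1-like cells.

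Further genes named by the rule in a single comparison follow. In Prog, Raph1 (log2 ratio -1.5), Camk2b (-1.47), Eya1 (-1.43) and Robo1 (-1.32) were among the lowest. Robo1 was also higher in the 11-2 cells, which were 28.6% of the classified cells at P-LC24 against 21.7% at P-HC24, and their part in its ratio was not tested. Sox5os3 (-1.96) was lowest, and overlaps Sox5. Ddah1 (1.13) and Xaf1 (1.01) were among the highest. With mitochondrial UMIs limited to 5%, the Prog ratios of Robo1, Sox5os3 and Xaf1 were -2.0, -2.79 and 1.60, and the Int ratio of Bpgm, named next, was -2.40. In Int, Fkbp5, a glucocorticoid-induced immunophilin gene, stood at 103, 66.5, 43.5 and 115 CPM and had a ratio of 1.40 (1.28 to 1.53) after -0.63 in Prog. The Fcer2a B cells had an Fkbp5 ratio of 0.26 in Int. The linker histone genes H1f4 (1.5) and H1f2 (1.31) and the arrestin-like gene Arrdc3 (1.26) were also among the highest in Int, and Bpgm (-1.08), the glycogen phosphorylase gene Pygm (-1.0), Rsrp1 (-1.0), Il4i1 (-0.96) and Adgrl2 (-0.91) among the lowest.

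Markers of other cell types moved between the libraries. The summed erythroid list stood at 10016, 9974, 16261 and 4344 CPM in the B-1-like cells, with all 4 genes lower in Int (median -1.90). The neutrophil list stood at 37.6, 220, 2.21 and 3.00 CPM, and the macrophage and monocyte list at 139, 148, 134 and 271 CPM. The T cell list stayed between 13.4 and 18.2 CPM, the hepatocyte list between 1.28 and 3.64 CPM and the endothelial list between 0.143 and 0.802 CPM, so the last 2 were near 0. Their part in the diet comparisons was not tested.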

How the data were processed

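Non-parenchymal cells from pooled liver aspirates were sequenced with the 10x Chromium 3′ v3.1 kit, which reads transcripts from their 3′ end, so V genes gave few UMIs. The deposited matrices hold whole-number UMI counts per gene and barcode, made by the authors with Cell Ranger 9.0.1 on GRCm39. The methods also name Seurat 5.3 and an ambient RNA correction, but the deposited values are whole numbers and no correction was visible. Libraries held 7035 to 9828 barcodes and 50941106 to 89257239 UMIs. Membership followed the rule given above, and the cells, gene lists and comparisons were chosen with earlier results of these data known. Counts of cells were summed per library. Genes were compared between groups where a UMI was present in at least 10% of cells of either library and both held at least 100 UMIs together, and a difference was at least 1.2-fold, with no test because each group was 1 library. Fold changes of genes with a count of 0 were set against 3 UMIs.

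The genes named were, in Prog and in Int, the 10 highest and 10 lowest by ratio with at least 200 UMIs over both libraries and a CPM at least 20% of that in barcodes without Cd79a. Against Fcer2a B cells they were the 20 highest and 15 lowest. Members of each list were named by level, by identity or by passing 1.2-fold in both comparisons. Immunoglobulin, T cell receptor, haemoglobin, mitochondrial and rule genes and unnamed models were left out. The 15 highest and 15 lowest V class genes, the class itself, and the genes Cd5, Rplp0, Cox4i1, Hspa1a and Hspa1b were chosen after values had been seen. The class test used edgeR 4.0.16 (R 4.3.3) with filterByExpr, TMM and Benjamini-Hochberg adjustment, without immunoglobulin genes, with DESeq2 1.42.0 as an alternative, and was tested on simulated data. Python 3.11.15, scipy 1.17.1 and scanpy 1.11.5 (Scrublet) were used elsewhere. A few genes that met the naming rules are not reported here. V segments were located by symbol in the gene annotation of the GRCm39 genome.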

Additional observations from a re-analysis of the deposited data

Results flagged for a closer look

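Genes of the B-1, antibody secretion, heat shock and mitochondrially encoded lists are given here where they passed 1.2-fold in opposite directions at week 24 and week 32. Their counting intervals left out 0 at both times. Such genes were not particular to these lists. Of 7677 genes compared at both times, 360 were lower in Prog and higher in Int, and 50 higher in Prog and lower in Int. Il4ra, Malt1, Ikzf1 and Ahnak of other lists were among the 360. The difference between the times was not tested, since each group was 1 library. Of the B-1 genes, Plscr1 had log2 ratios of -0.35 in Prog and 0.33 in Int, Ctla4 of -0.28 and 0.32, and Cd80 of -0.42 and 0.57. Xbp1 and Prdm1, transcription factor genes of antibody-secreting cells, had ratios of -0.31 and 0.52, and of -0.34 and 0.70. Xbp1 stood at 33.0, 26.6, 32.2 and 46.1 CPM and Prdm1 at 46.0, 36.3, 18.8 and 30.6 CPM in library order. The chaperone gene Hsph1 had ratios of -0.73 and 1.14. Relative to the median gene, the Prog ratios were -0.17 for Plscr1, -0.09 for Ctla4, -0.24 for Cd80, -0.13 for Xbp1 and -0.15 for Prdm1, under 1.2-fold in each case, and -0.55 for Hsph1, which alone of these passed 1.2-fold on that scale in Prog.

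Of 13 mitochondrially encoded genes, 4 were higher in Prog and lower in Int, with mt-Nd2 at 0.37 in Prog and -0.26 in Int, mt-Co2 at 0.31 and -0.32, mt-Atp6 at 0.32 and -0.34, and mt-Co3 at 0.43 and -0.33. In contrast, mt-Atp8 (-0.74 and -0.33), mt-Nd4l (-0.85 and -0.29) and mt-Nd6 (-1.08 and -0.35) were lower in both. Barcodes that met every other condition but had over 10% mitochondrial UMIs were left out of the B-1-like cells, and these numbered 32 and 52 at week 24 and 32 and 130 at week 32, low arm first.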

How the results depend on the processing

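At a mitochondrial limit of 5% the share of B-1-like kappa cells was 6.48%, 6.76%, 6.33% and 25.5% in library order, and the difference 0.284 points in Prog and 19.1 in Int. As a share of kept B cells the values were 17.5%, 33.8%, 23.4% and 47.2%, with differences of 16.3 and 23.8 points. With both light chains, a setting added after the data were seen, they were 13%, 24.9%, 24.9% and 35.1%, with an Int difference of 10.1 points. In P-HC24 the share was 21.4% with at least 4 rule-gene UMIs and 19.5% in cells thinned to 3000 UMIs, where the Prog difference was 9.20 points. In I-HC32 it was 30.2% at a limit of 20% and 32.7% with at least 2 rule-gene UMIs. The Prog counts of genes, higher and lower, were 93 and 640 at 1.5-fold, 1981 and 5441 with a filter of 20 UMIs, and 2054 and 1557 relative to the median gene. The Int counts were 157 and 70 at 1.5-fold, 3002 and 2096 with 20 UMIs, and 3156 and 175 by mean UMIs per cell, while 791 genes were lower relative to the median gene and 1168 at the 5% limit. The cause of these changes was not tested, except that a stricter fold passes fewer genes and a looser filter compares more. At the 5% limit, which leaves fewer cells, the Int median of the mitochondrially encoded genes turned to 0.0058, the Ighv11-2 share was 12.2% in P-HC24 but 25.3% in I-LC32, and 138 genes were higher and 132 lower than in Fcer2a B cells. Among values of the genes named in the diet comparisons, 12 in Prog and 10 in Int moved past their counting interval, mostly at the 5% limit, and none changed sign. The settings of the V class test were chosen after the data were seen. Its counts, higher and lower, were 675 and 430 with DESeq2, 625 and 459 by the heavy chain only, and 395 and 332 at the 5% limit, and ran from 787 to 1054 and from 563 to 807 when each library was left out. Among values of named V class genes under these settings, 329 kept their direction and side of the threshold, 13 lost significance and 1 gained it.

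Each group was 1 library of 3 pooled mice, so differences between diets carry no error between animals, and no replicate numbers pair the samples. V genes were seen in few cells, with 313 to 620 heavy V UMIs per library, so rarer V genes and pairings were not resolved at this depth.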

Other observations

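Genes of sterol handling did not move as 1 group. Of 10 sterol synthesis and uptake genes compared in Prog, 2 were higher and 6 lower, and of 9 in Int none was higher and 1 lower, with medians of -0.11 and -0.07 against the median gene. Over all genes compared, 12.6% were higher and 42.2% lower in Prog, and 15.2% higher and 6.51% lower in Int. Abca1, for a cholesterol exporter induced by liver X receptors, stood at 92.7, 79.2, 76.4 and 69.5 CPM in library order (log2 ratios -0.23 in Prog and -0.14 in Int). Interferon-stimulated genes were higher in 3 of 7 and lower in 1 in Prog, and higher in none and lower in 3 of 7 in Int.

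The light chains of the B-1-like cells differed between libraries. Cells that met the same rule but held more lambda than kappa UMIs numbered 94, 174, 706 and 266, or 14.1%, 10.1%, 38.2% and 10.3% of all B-1-like cells, so that I-LC32 stood apart from the other 3 libraries. The lambda cells of I-LC32 also had a narrow heavy chain repertoire. Their effective number of heavy V genes was 1.73, against 14.1 in P-LC24, 22.0 in P-HC24 and 16.0 in I-HC32. Whether they came from a single clone was not tested.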
